A study of Rattus norvegicus with 372 samples.

Results

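The carnitine shuttle and the mitochondrial beta oxidation enzymes were followed as a set of 9 named genes: Cpt1a, Cpt1b, Cpt2, Slc25a20, Acadm, Acadl, Acadvl, Hadha and Hadhb. They were chosen by name, as the probes whose gene symbol equals one of these names. Of the 9 genes, 8 had a probe among the 20946 gene symbols of the whole-transcriptome (WT) assay, each with 1 probe, and 6 had one among the 2604 symbols of the S1500+ surrogate (ST) assay. The expression of Slc25a20, the carnitine-acylcarnitine carrier of the inner membrane, was not analysed here. Cpt1a and Hadha were measured by WT alone. All 8 WT genes passed the filter on low counts (a mean of at least 10 counts over the wells), so no gene was lost there.

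Long chain fatty acids cannot cross the inner mitochondrial membrane as acyl-CoA. Carnitine palmitoyltransferase 1 (Cpt1a is the liver isoform and Cpt1b the muscle isoform) makes the acylcarnitine at the outer membrane, the carrier moves it inward, and Cpt2 restores the acyl-CoA in the matrix. There the acyl-CoA dehydrogenases for very long (Acadvl), long (Acadl) and medium (Acadm) chains take the first oxidation step, and the trifunctional protein, with its alpha subunit Hadha and beta subunit Hadhb, carries out the remaining steps for long chains. In liver most of these genes are known targets of the nuclear receptor PPARalpha, which fatty acids and fibrate-like drugs activate, and the step at carnitine palmitoyltransferase 1 is known as the control point of the pathway.

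The cells were primary hepatocytes freshly isolated from male Wistar rats and kept between layers of collagen in a medium with insulin and dexamethasone. Each of 14 chemicals was given at 2 concentrations for 24 h in 0.5% DMSO, so that every treated well also carried the vehicle, and wells with vehicle or with culture medium alone were the controls. The 28 treatments each had 3 wells in each of 2 batches, and a batch was the cells of 1 rat, so wells of a batch are technical replicates and the 2 rats are the biological ones. Batch 1 had 3 vehicle and 3 medium wells and batch 2 had 6 of each, and treatments were compared with vehicle with batch as a term. The controls of batch 1 were all on 1 of its 2 plates, so in that batch the plate of ketoconazole, WY14643, acetaminophen, indomethacin, sulfasalazine and chloramphenicol held no control well, while in batch 2 both plates held 3 vehicle wells. TempO-Seq, a ligation assay in which a pair of detector oligos on the target RNA is joined, amplified and sequenced, was run on the lysate of each of the 90 wells of batch 1 and 96 of batch 2, with the WT and the ST oligos.

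Depth was 2289425 to 8975207 reads per WT well and 558190 to 2210264 per ST well. Values are counts scaled to the total reads of a well (CPM) and, for tests, log2 fold changes (L2FC) with their standard error (SE) from a joint edgeR quasi-likelihood fit of all WT wells with treatment and batch as terms, and a gene was called at a Benjamini-Hochberg adjusted p under 0.05 over the 10191 genes tested. The wells carried hepatocyte RNA: the 7 measured hepatocyte markers summed to 37449 to 44829 CPM in vehicle wells, against 1.67 to 3.81 CPM for 5 endothelial, 22.5 to 43.5 for 6 Kupffer cell and leukocyte, 34.4 to 166 for 5 stellate and 33.1 to 49.0 for 5 biliary markers. All 5 endothelial markers, the biliary markers Krt19, Krt7 and Cftr, the stellate markers Acta2, Col1a1 and Des and the leukocyte markers Marco and Ptprc had medians under 1 CPM in vehicle. In a lysate, fewer cells of a type and less RNA per cell cannot be told apart. The hepatocyte marker sum was lower in many wells of the high concentrations, down to a median of 8237 CPM with 400 µM diclofenac, and in 12 treatments all wells lay below all vehicle wells of their batch. Those were the high concentrations of all chemicals but simvastatin and sulfasalazine. The same held for the sum of the Kupffer cell and leukocyte markers in 6 treatments (caffeine 10000 µM, diclofenac 400 µM, doxorubicin 2 µM, indomethacin 300 µM, naproxen 2000 µM and valproic acid 10000 µM), for the endothelial markers in 6, the biliary markers in 8 and the stellate markers in 7, among them caffeine and acetaminophen at 10000 µM and ranitidine at 4000 µM. The biliary sum lay above all vehicle wells of the batch in all wells of 1 treatment, valproic acid 10000 µM (median 58.0 CPM). The stellate sum of vehicle wells was 108 to 166 CPM in batch 1 and 34.4 to 50.1 CPM in batch 2. The part of these shifts in the changes of the 8 genes was not tested.

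In vehicle wells the 8 genes were all detected, at different levels. Because each was read by 1 probe and probes differ in how well they ligate, the levels of different genes are given as readings and not ranked. Acadl read 1200, 1066 and 1097 CPM in batch 1 and 952 to 1139 CPM, with a median of 1006, in batch 2. Acadvl read 200 to 222 CPM in batch 1 and 222 to 261 in batch 2. Of the 2 subunits of the trifunctional protein, Hadha read 136 to 160 CPM and Hadhb 106 to 145 CPM over both batches, and Acadm read 75.5 to 109 CPM. Of the shuttle genes, Cpt2 read 20.6 to 28.9 CPM, Cpt1a 3.25 to 7.62 CPM and Cpt1b 1.18 to 5.08 CPM. A Cpt1b reading in a vehicle well rested on 8 to 42 reads, so its counting error is wide.

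Medium without DMSO gave L2FC between -0.50 (Cpt1a) and 0.33 (Cpt1b) against vehicle, and 0 of 8 genes were called by edgeR, where 7.51% of all genes tested were called higher and 5.1% lower. At an unadjusted p under 0.05 were 4 of 8, against 26.3% of all genes. DESeq2 called 1 of the 8, Hadhb, with an L2FC of 0.30. Calls were made in other settings too. ST called Acadm, Cpt1b and Cpt2, batch 2 alone Acadm, Cpt1b and Hadhb, and the wells of medium and vehicle alone Acadvl, Cpt1a and Hadhb. The shares of all genes above are from the joint WT fit, and none is given for these settings.

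**Figure D1:**
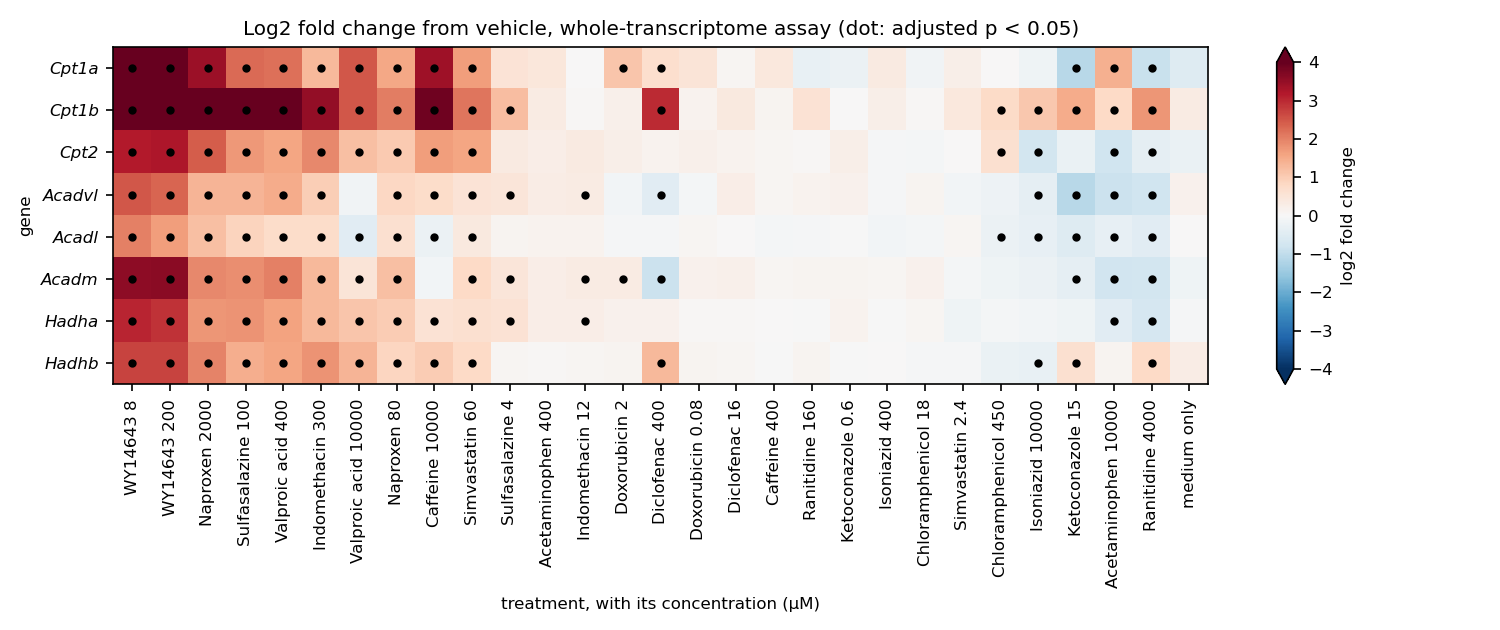
Log2 fold change from vehicle of each gene (rows) in each treatment and in medium alone (columns, concentrations in µM), ordered from the highest to the lowest median over the 8 genes. Colours stop at 4 in both directions and a dot marks an adjusted p under 0.05: the 8 columns with a dot in every row and only red cells are among the 10 at the left, beside valproic acid and caffeine at 10000 µM, and the treatments at the right hold both colours.

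Over the 28 treatments, 97 of the 224 pairs of gene and treatment were called higher than vehicle and 24 lower, while 15.2% of all gene and treatment pairs tested were called higher and 15% lower (30.2% in either direction). By role, the 3 shuttle genes gave 41 higher and 5 lower calls in 84 pairs, the 2 subunits of the trifunctional protein 25 higher and 3 lower in 56, and the 3 dehydrogenases 31 higher and 16 lower in 84. At least 1 gene was called in 19 treatments, and all 8 were called higher in 8: WY14643 at 8 and 200 µM, valproic acid at 400 µM, naproxen at 80 and 2000 µM, indomethacin at 300 µM, sulfasalazine at 100 µM and simvastatin at 60 µM. In 8 others genes were called in both directions. No gene of the 8 was called with acetaminophen 400 µM (1.38% of all genes called in either direction), caffeine 400 µM (0.118%), chloramphenicol 18 µM (0.0883%), diclofenac 16 µM (0.137%), doxorubicin 0.08 µM (1.32%), isoniazid 400 µM (0.0196%), ketoconazole 0.6 µM (1.62%), ranitidine 160 µM (0.0589%) or simvastatin 2.4 µM (2.4%), where 8 of the 72 pairs had an unadjusted p under 0.05, against 9.01% of all pairs in these treatments. All 24 lower calls fell at the high concentrations, where 25.4% of all pairs were called higher and 25.5% lower, and the 31 higher calls at low concentrations compare with 4.91% of all pairs. All treated wells lay on one side of all vehicle wells in both batches in 112 of the 224 pairs, 108 of which were called, against 18.2% of all pairs tested. With the wells of each rat summed to 1 library, 103 of the 121 calls held. Over all pairs tested the share called in either direction went from 30.2% to 20.4%. With plate in place of batch 6 calls were lost: Acadm, Acadvl and Hadha with indomethacin 12 µM, Cpt1b with acetaminophen 10000 µM and chloramphenicol 450 µM, and Hadhb with isoniazid 10000 µM. Scaling by library totals alone moved the median over all genes by more than 0.1 log2 units in 10 treatments, from -0.43 to 0.27. It ended 6 of the 121 calls, namely Acadl with chloramphenicol 450 µM, Acadm, Acadvl and Hadha with indomethacin 12 µM, Cpt1b with acetaminophen 10000 µM and Hadhb with isoniazid 10000 µM. It added lower calls for Acadm with caffeine 10000 µM, Hadhb with acetaminophen 10000 µM and Cpt2 and Hadha with ketoconazole 15 µM, and higher calls for Cpt2 and Hadha with diclofenac 400 µM.

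Cpt1a, the liver isoform that commits acyl groups to the mitochondria, was called higher in 13 treatments and lower in 2. With 8 µM WY14643, a fibrate-like PPARalpha agonist, it read 77.8, 97.4 and 73.6 CPM in batch 1 and 42.9, 65.2 and 66.5 in batch 2, and with 200 µM 68.9 to 74.6 and 67.1 to 69.6 CPM. No well of either concentration overlapped vehicle, and the L2FC were 4.09 (SE 0.20) and 4.04 (SE 0.20). The next largest rises were with naproxen at 2000 µM, a non-steroidal anti-inflammatory drug, where wells read 43.8 to 49.4 and 49.3 to 69.6 CPM (L2FC 3.44, SE 0.20), and with caffeine at 10000 µM, where they read 37.8 to 44.8 and 47.3 to 60.8 CPM (L2FC 3.39, SE 0.20). Valproic acid, a branched chain fatty acid used against epilepsy, raised it by 2.2 (SE 0.21) at 400 µM and 2.5 (SE 0.20) at 10000 µM. Acetaminophen at 10000 µM raised it to 9.07, 14.6 and 11.5 CPM in batch 1 and 8.13, 11 and 6.64 CPM in batch 2 (L2FC 1.42, SE 0.22). It was lower with ketoconazole at 15 µM, an azole antifungal, at 3.23, 3.68 and 2.48 CPM in batch 1 and 1.97, 0.711 and 1.64 CPM in batch 2 (L2FC -1.12, SE 0.27), and with ranitidine at 4000 µM, a histamine H2 blocker, at 1.60 to 4.69 and 2.03 to 2.56 CPM (L2FC -0.91, SE 0.26). In batch 1 the highest ranitidine well overlapped the lowest vehicle well. Doxorubicin at 2 µM, which intercalates in DNA, raised Cpt1a by 1.11 (SE 0.22), with wells at 6.27 to 11.3 and 10.4 to 17.2 CPM.

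Cpt1b, the isoform known from muscle and heart, was called higher in 17 treatments, more than any other of the 8 genes, and lower in 0 of 28. With 8 µM WY14643 it read 538, 486 and 463 CPM in batch 1 and 371, 424 and 425 CPM in batch 2, from 1.18 to 5.08 CPM in vehicle. That was an L2FC of 7.32 (SE 0.20, edgeR adjusted p = 3.4e-78), the largest change of the 8 genes in any treatment together with the 7.35 (SE 0.20) at 200 µM. Naproxen at 2000 µM gave 135 to 161 and 113 to 147 CPM (L2FC 5.38, SE 0.19), valproic acid at 400 µM 91.5 to 122 and 70.9 to 98.3 CPM (4.82, SE 0.19) and sulfasalazine at 100 µM 68.4 to 83.9 and 48.4 to 75.1 CPM (4.46, SE 0.19). It also rose in treatments where other genes fell: with diclofenac at 400 µM it read 29.3, 43.2 and 34.3 CPM in batch 1 and 20.4, 22.9 and 31.7 CPM in batch 2 (L2FC 2.99, SE 0.19), with ranitidine at 4000 µM 8.68 to 15.3 and 10.0 to 11.7 CPM (1.76, SE 0.21) and with ketoconazole at 15 µM 7.75 to 13.0 and 6.92 to 11.5 CPM (1.47, SE 0.21). With acetaminophen at 10000 µM, wells at 3.54 to 8.24 and 2.81 to 4.58 CPM overlapped vehicle in both batches (L2FC 0.79, SE 0.24). It was not called when wells were scaled by library totals alone (0.38) or when the wells of each rat were summed. The L2FC with chloramphenicol at 450 µM was 0.77 (SE 0.23), which was also not called when wells were summed.

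The 2 isoforms were compared within each well, as the log2 ratio of their counts, which no scaling between wells can change. This comparison was added after the values had been seen. Against vehicle and by an exact permutation test within batches (two-sided, adjusted over 29 comparisons, smallest p possible 0.000595), the ratio of Cpt1b to Cpt1a rose in 13 of 28 treatments and fell in 1. It rose by 3.26 log2 units with 8 µM WY14643 (3.02 in batch 1 and 3.5 in batch 2), by 2.70 with ranitidine 4000 µM and by 2.65 with ketoconazole 15 µM. It fell by 0.892 with doxorubicin at 2 µM (by 1.04 in batch 1 and by 0.748 in batch 2). With valproic acid it was 2.64 above vehicle at 400 µM and 0.00188 at 10000 µM (-0.403 in batch 1 and 0.407 in batch 2). Medium without DMSO was 0.534 above vehicle (-0.326 in batch 1 and 1.39 in batch 2) and was not called. The ratio in single vehicle wells ran from -1.40 to 0. Differences of the size of the doxorubicin fall thus occurred between the controls.

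Cpt2, the acyltransferase of the inner membrane, was called higher in 11 treatments and lower in 3. Wells with 200 µM WY14643 read 193, 199 and 175 CPM in batch 1 and 213, 169 and 165 CPM in batch 2 (L2FC 3.24, SE 0.13). Chloramphenicol at 450 µM, an antibiotic that blocks mitochondrial translation, raised it to 32.1, 25.5 and 40.4 CPM in batch 1 and 41.0, 51.8 and 45.8 CPM in batch 2 (L2FC 0.64, SE 0.13), and in batch 1 these wells overlapped vehicle; the call was lost when wells were summed per rat. It fell with acetaminophen at 10000 µM to 4.40, 16.4 and 8.46 CPM in batch 1 and 9.05, 12.6 and 8.56 CPM in batch 2 (L2FC -0.78, SE 0.15), and with isoniazid at 10000 µM, an antituberculosis drug, to 14.4 to 18.1 and 10.4 to 14.6 CPM (L2FC -0.74, SE 0.14). With ranitidine at 4000 µM the L2FC was -0.37 (SE 0.14), which was not called with summed wells.

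**Figure D2:**
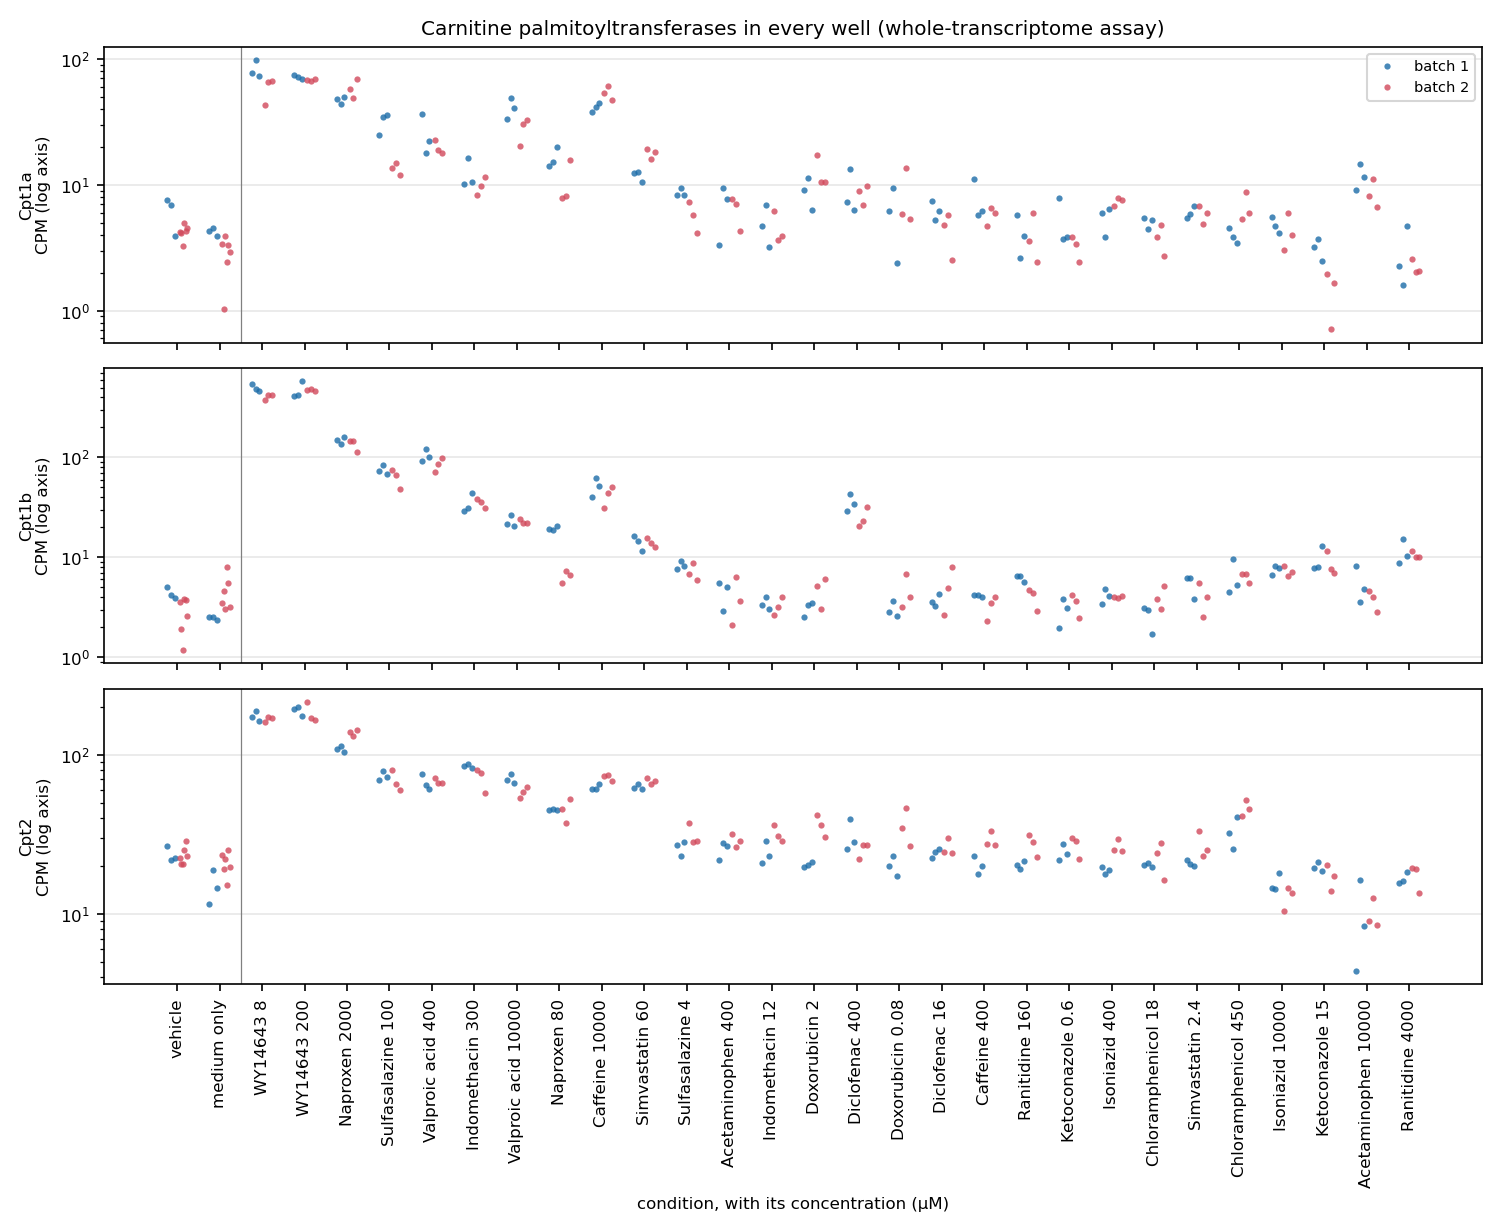
CPM of Cpt1a, Cpt1b and Cpt2 (log axes) in each WT well, by condition and batch, with treatments ordered as in the colour map of fold changes. Each point is 1 well; Cpt1b stands at 371 to 577 CPM with WY14643 against 1.18 to 5.08 CPM in vehicle.

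Acadm, which takes medium chains and is deficient in the commonest inherited disorder of fatty acid oxidation, read 1046, 915 and 819 CPM in batch 1 and 850, 848 and 890 CPM in batch 2 with 8 µM WY14643 (L2FC 3.58, SE 0.11). It was called higher in 12 treatments and lower in 4. It fell with diclofenac at 400 µM to 43.1, 70.5 and 67.5 CPM in batch 1 and 49.8, 52.4 and 51.5 CPM in batch 2 (L2FC -0.84, SE 0.11), with no overlap with vehicle. With acetaminophen at 10000 µM it read 25.3 to 34.7 CPM in batch 1 and 45.6 to 57.9 CPM in batch 2 (L2FC -0.76, SE 0.11), a larger fall in the first rat.

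Acadl was called higher in 8 treatments and lower in 7, and it had the smallest rise of the 8 genes with each WY14643 concentration: wells at 8 µM read 3987, 4393 and 3829 CPM in batch 1 and 3034, 3161 and 3299 CPM in batch 2 (L2FC 2.02, SE 0.07). Ketoconazole at 15 µM gave 801 to 860 and 596 to 670 CPM (L2FC -0.53, SE 0.07), ranitidine at 4000 µM 699 to 754 and 712 to 762 CPM (L2FC -0.47, SE 0.07), and valproic acid at 10000 µM 940 to 1119 and 777 to 896 CPM (L2FC -0.45, SE 0.07, and -0.18 by library totals alone). With valproic acid the wells of batch 1 overlapped vehicle.

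Acadvl, which acts on very long chains at the inner membrane, was called higher in 11 treatments and lower in 5. It reached 903 to 1070.1 and 1009.9 to 1142 CPM with 8 µM WY14643 (L2FC 2.49, SE 0.10). In the joint fit its deepest fall was with ketoconazole at 15 µM (L2FC -1.12, SE 0.11), where wells read 109.6, 99.3 and 96.1 CPM in batch 1 and 109, 86.2 and 100.4 CPM in batch 2. By library totals alone the fall was deeper with acetaminophen at 10000 µM (-1.28) than with ketoconazole (-1.18). Acetaminophen at 10000 µM gave 83.8 to 99.3 and 78.8 to 104 CPM (L2FC -0.87, SE 0.11), and ranitidine at 4000 µM 127 to 139 and 99.9 to 130 CPM (L2FC -0.79, SE 0.11). None of these wells overlapped vehicle.

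**Figure D3:**
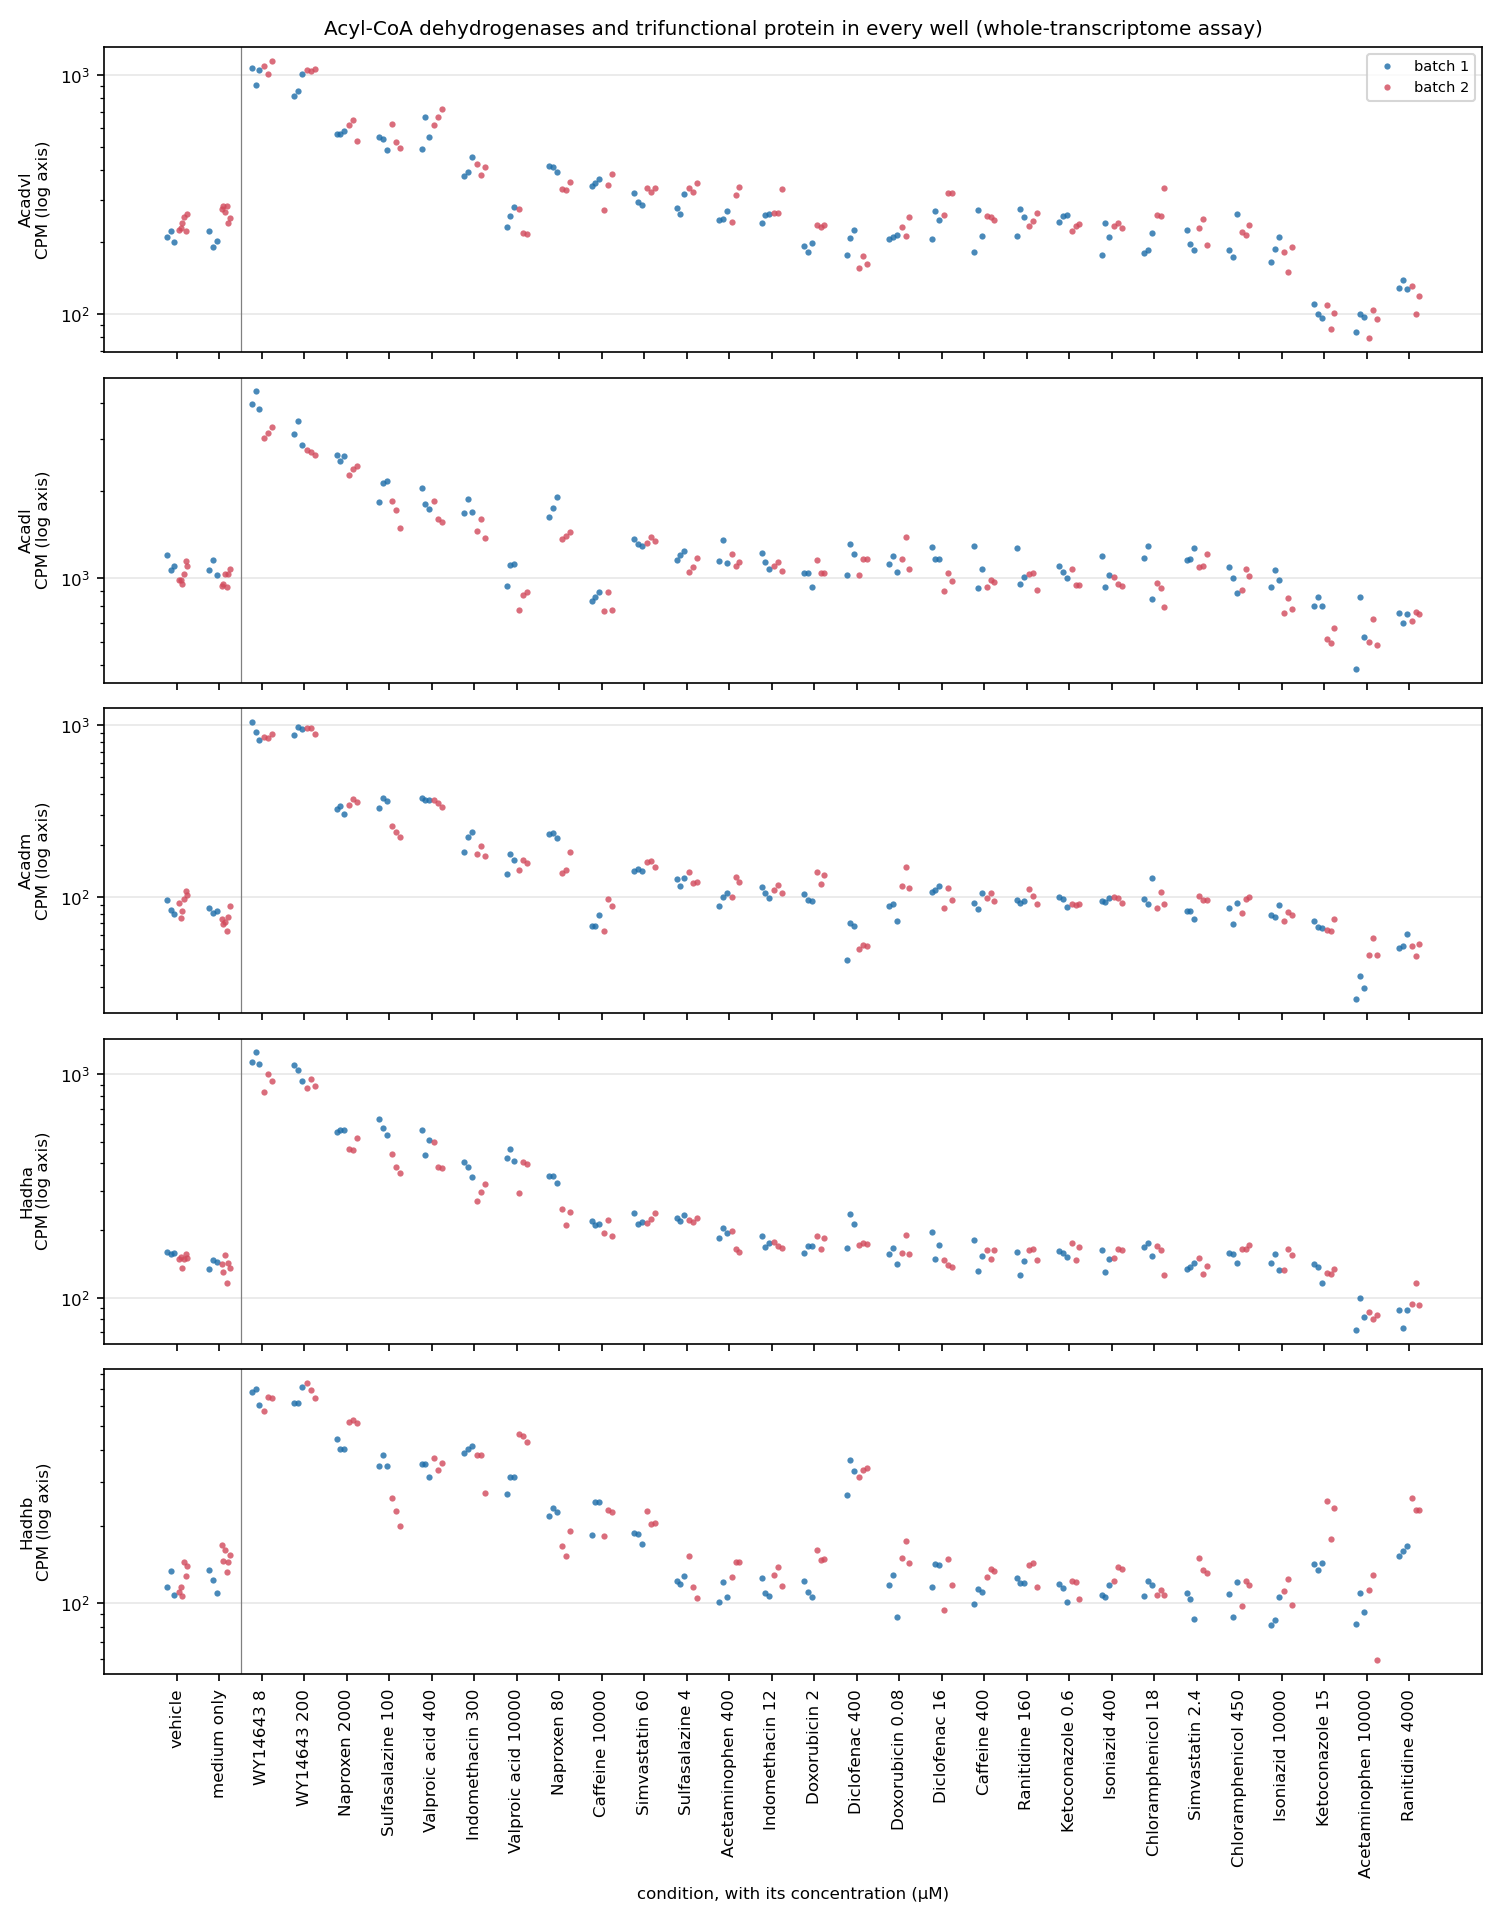
CPM of the 3 acyl-CoA dehydrogenases and the 2 subunits of the trifunctional protein (log axes) in each WT well, by condition and batch. Each point is 1 well; Acadl lies at 596 to 860 CPM in ketoconazole 15 µM and Acadvl at 86.2 to 109.6 CPM, below the vehicle wells, while Hadhb lies at 135 to 253 CPM.

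Hadha and Hadhb encode the subunits of a single complex and lie head to head in the rat genome, transcribed away from each other. In RefSeq's annotation of the GRCr8 build the 300 bases between their starts are chr6:31907501-31907800, outside either transcript. They are shown because both promoters share them, and because the subunits did not always move together. The sequence is on the plus strand, so that Hadha is read rightward from its right end and Hadhb leftward from its left end. Capitals mark the 200 bases that lie within 250 bases of both starts.
Hadhb-Hadha interval: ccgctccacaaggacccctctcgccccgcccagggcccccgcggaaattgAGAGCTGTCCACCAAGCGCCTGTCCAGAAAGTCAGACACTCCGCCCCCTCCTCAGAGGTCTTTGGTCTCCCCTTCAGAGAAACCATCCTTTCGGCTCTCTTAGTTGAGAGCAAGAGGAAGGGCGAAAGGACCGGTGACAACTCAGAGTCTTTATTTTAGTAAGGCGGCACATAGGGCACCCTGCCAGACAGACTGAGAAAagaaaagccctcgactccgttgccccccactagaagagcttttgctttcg
Of the 16845 plus strand promoter windows in the table (250 bases before to 50 after a gene's start), 9.99% overlapped a minus strand window. The interval held 57% G and C and 14 CG pairs.

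A promoter window was held for 7 of the 9 genes, those of Cpt1a, Cpt2, Slc25a20, Acadm, Acadvl, Hadha and Hadhb. PPARalpha binds with its partner RXR to a direct repeat, AGGTCA written 2 times with 1 base between. On both strands none of the 7 windows held it (18 of all 33469 windows did, 0.0538%), nor the relaxed form with AGGNCA in place of each AGGTCA (139 windows, 0.415%). At these shares 7 windows would seldom hold either form, so the absence says little. Sites outside the windows were not searched. A single AGGTCA, which is part of the repeat, occurred 2 times in the Acadvl window and 1 time in the Hadhb window, against 16.2% of all windows with at least 1.

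With WY14643 at 8 µM Hadha read 1140, 1252 and 1113 CPM in batch 1 and 832, 998 and 936 CPM in batch 2 (L2FC 3.04, SE 0.09), and Hadhb 680, 697 and 602 CPM and 572, 652 and 642 CPM (L2FC 2.71, SE 0.12). Both were called higher in the 8 treatments that raised all genes, and also with valproic acid and caffeine at 10000 µM. They parted with ranitidine at 4000 µM. There Hadha fell to 87.7, 73.2 and 87.7 CPM in batch 1 and 94.1, 116 and 92.9 CPM in batch 2 (L2FC -0.66, SE 0.09), while Hadhb rose to 153, 160 and 167 CPM and 260, 233 and 233 CPM (L2FC 0.81, SE 0.12). With diclofenac at 400 µM Hadhb rose to 266, 365 and 331 CPM and 313, 334 and 341 CPM (L2FC 1.3, SE 0.12), and Hadha had an L2FC of 0.16 (SE 0.09) that was not called, though it was by library totals alone (0.30). With ketoconazole at 15 µM the L2FC were 0.64 (SE 0.12) for Hadhb and -0.18 (SE 0.09, not called) for Hadha.

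The log2 ratio of Hadhb to Hadha counts within a well, added after the values had been seen, was -0.568 to -0.0488 in the 9 vehicle wells. By the exact permutation test within batches it rose in 6 of 28 treatments and fell in 3. With the wells of 1 replicate number left out, there were 5 to 10 such calls. The rise was 1.47 log2 units with ranitidine 4000 µM (1.38 and 1.55 in the 2 batches), 1.13 with diclofenac 400 µM, 0.784 with ketoconazole 15 µM, 0.528 with acetaminophen 10000 µM, 0.505 with indomethacin 300 µM and 0.432 with caffeine 10000 µM. The falls were 0.522 with sulfasalazine 4 µM, 0.386 with sulfasalazine 100 µM and 0.341 with WY14643 at 8 µM. Medium without DMSO was also 0.315 above vehicle (0.210 and 0.420 in the 2 batches, permutation adjusted p = 0.00647), so differences of that size occurred between the controls. In the 3 treatments with the largest rises the hepatocyte marker sum was also low. Its medians were 13589 CPM with ranitidine, 8237 with diclofenac and 20952.5 with ketoconazole, against 42196 in vehicle. Medians below that of ketoconazole were also read with naproxen 2000 µM (20723 CPM) and valproic acid 10000 µM (18158 CPM), where the ratio was not called. The part of the marker sum in the ratio was not tested.

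**Figure D4:**
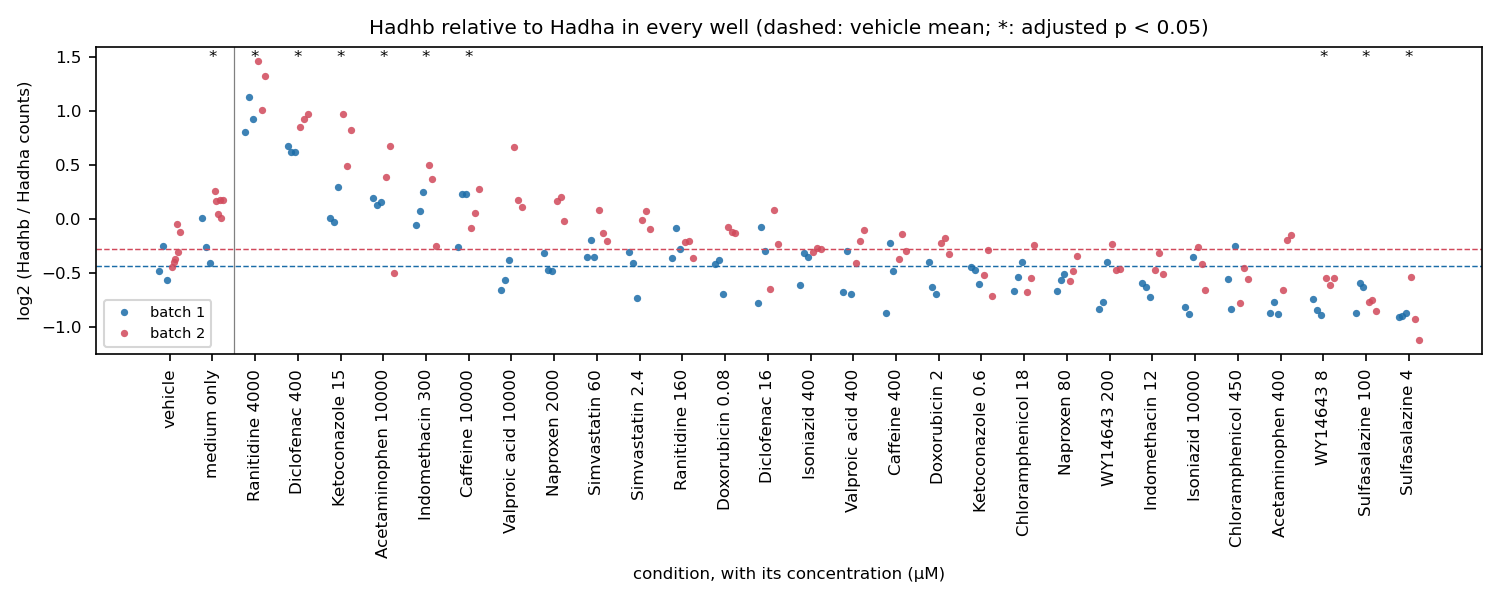
Log2 ratio of Hadhb to Hadha counts in each WT well, by condition and batch, ordered by the difference from vehicle; dashed lines are the vehicle means of each batch and a star marks an adjusted p under 0.05. The ratio is highest with ranitidine 4000 and diclofenac 400 µM, and the medium wells of batch 2 lie above the vehicle wells of batch 2 as well.

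By treatment, WY14643 raised all 8 genes at both concentrations, with a median L2FC of 3.10 at 8 µM and 3.06 at 200 µM, where the median of all genes was -0.01 at either (28% and 26% of all genes called higher). The order was Cpt1b, Cpt1a, Acadm, Cpt2, Hadha, Hadhb, Acadvl and Acadl at both concentrations. Between the concentrations 1 of 8 genes, Acadl, differed between 200 and 8 µM (L2FC -0.35, SE 0.08, with 2.52% of all genes called higher and 3.22% lower). For the other 7 the difference ran from -0.16 to 0.08 with SE of 0.09 to 0.19, and the 95% interval of Cpt1a was -0.43 to 0.33. Hepatocyte markers summed to medians of 38585 CPM at 8 µM and 34477 CPM at 200 µM. Of the 2 biliary markers tested, Sox9 was called higher at 8 µM (1.12) and 200 µM (1.09). Epcam was called lower at 200 µM (-0.33), though not with summed wells. The part of these markers in the rises was not tested. By library totals alone the median over all genes was -0.29 at 8 µM and -0.24 at 200 µM, and the 8 genes still rose, by 1.44 (Acadl at 200 µM) to 7.11 (Cpt1b at 200 µM).

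With valproic acid all 8 genes rose at 400 µM, with a median L2FC of 1.59 (15.1% of all genes called higher), while at 10000 µM 6 rose, Acadl fell and Acadvl was not called (L2FC -0.15, SE 0.10) beside 33.5% of all genes higher and 33.2% lower. Between the concentrations 6 of 8 genes were lower at 10000 µM, by 2.35 (SE 0.18) for Cpt1b, 1.63 (SE 0.11) for Acadvl, 1.5 (SE 0.12) for Acadm, 1.19 (SE 0.08) for Acadl, 0.51 (SE 0.09) for Hadha and 0.36 (SE 0.14) for Cpt2 on the log2 scale (32.5% of all genes lower). Cpt1a and Hadhb were not called in this comparison, at 0.29 (SE 0.20) and -0.21 (SE 0.13). By library totals alone the difference of Cpt2 was -0.06 and not called, that of Hadha was -0.21, and Cpt1a was called higher at 10000 µM (0.59). The hepatocyte marker sum had medians of 47033 CPM at 400 µM and 18158 CPM at 10000 µM. In the same order the medians were 35.9 and 15.9 CPM for Kupffer cell and leukocyte markers and 111 and 52.0 for stellate markers. They were 2.57 and 0.709 CPM for endothelial and 29.6 and 58.0 for biliary markers. The part of these markers in the differences was not tested. At 10000 µM the scaling mattered: by library totals alone the median over all genes was 0.27, and the 3 Acadvl wells of batch 1, at 230 to 280 CPM, lay above vehicle although the L2FC was negative.

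Of the anti-inflammatory drugs, naproxen raised all 8 genes at 80 µM (median L2FC 1.03, with 8.64% of all genes higher) and at 2000 µM (1.94, 27.6%), and all 8 were higher at 2000 than at 80 µM, by 0.54 for Acadvl to 3.33 for Cpt1b (23.7% of all genes higher). Indomethacin raised all 8 at 300 µM (median 1.29, 27.1%), and 3 of 8 at 12 µM, namely Acadm, Hadha and Acadvl with L2FC of 0.34, 0.26 and 0.33 (3.53% of all genes). Sulfasalazine, which gut bacteria cleave to an aminosalicylate, raised all 8 at 100 µM (median 1.77, 21.3%) and 4 at 4 µM, Cpt1b by 1.22, Hadha by 0.58, Acadm by 0.49 and Acadvl by 0.49 (9.35%). None of these 7 calls at 12 and 4 µM held with the wells of each rat summed. Diclofenac at 400 µM raised Cpt1b, Hadhb and Cpt1a (L2FC 0.67, SE 0.22) and lowered Acadm and Acadvl (-0.44, SE 0.10), with 36% and 35.8% of all genes called higher and lower, and at 16 µM none of the 8 was called. The Cpt1a call was lost with summed wells. The hepatocyte marker sum had medians of 20723 CPM with naproxen at 2000 µM, 27187 with indomethacin at 300 µM, 44501 with sulfasalazine at 100 µM and 8237 with diclofenac at 400 µM, and its part in these changes was not tested. The concentrations of these 4 drugs differ, so no test between drugs was made.

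Simvastatin, which blocks HMG-CoA reductase, raised all 8 genes at 60 µM, by 0.39 (SE 0.07) for Acadl to 2.13 (SE 0.20) for Cpt1b, with a median of 0.80 and 11.4% of all genes called higher. The hepatocyte marker sum then had a median of 41653 CPM, near that of vehicle, while single markers of other cell types were called: Sox9 (-1.29) and Cd5l (-0.79) lower, and Epcam (0.35) and Col3a1 (0.56) higher. None of these 4 was called with summed wells. Caffeine at 10000 µM raised 6 (34.6% of all genes) and lowered Acadl (L2FC -0.24, SE 0.07, 31.6%), and Acadm was not called (L2FC -0.10, SE 0.11). The fall of Acadl was not called with summed wells, and the hepatocyte marker sum had a median of 22055 CPM. The rises were largest in the shuttle: Cpt1b wells read 40.4, 62.8 and 51.2 CPM in batch 1 and 31.2, 44.3 and 50.6 CPM in batch 2 (L2FC 3.90, SE 0.19) and Cpt2 60.8 to 65.5 and 67.9 to 74.0 CPM (1.66, SE 0.13). Hadhb, Acadvl and Hadha rose by 1.02, 0.74 and 0.56.

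In 4 treatments at high concentration more genes fell than rose. Ranitidine at 4000 µM lowered 6 of 8 and raised Cpt1b and Hadhb (33.9% of all genes lower, 32.3% higher). Acetaminophen at 10000 µM lowered Cpt2, Acadm, Acadl, Acadvl and Hadha and raised Cpt1a and Cpt1b (40.1% lower, 38.8% higher). Ketoconazole at 15 µM lowered Cpt1a, Acadm, Acadl and Acadvl and raised Cpt1b and Hadhb (26.3% lower, 25% higher), and isoniazid at 10000 µM lowered Cpt2, Acadl, Acadvl and Hadhb and raised Cpt1b (17.3% lower, 17.4% higher). With summed wells the falls of Cpt2 with ranitidine, of Acadvl and Hadhb with isoniazid and of Acadm with ketoconazole and the rise of Cpt1b with acetaminophen were not called. The median L2FC of the 8 genes was -0.57 with ranitidine, -0.39 with acetaminophen, -0.32 with ketoconazole and -0.27 with isoniazid, while the median over all genes was between -0.03 and 0.01. With acetaminophen the scaling mattered too: by library totals alone the median over all genes was -0.43, Acadl had an L2FC of -0.73 in place of -0.32, and Hadhb turned from 0.10 (not called) to -0.30 and was called lower. The hepatocyte marker sum was below the vehicle range in all wells of these 4 treatments, with medians of 13589 to 28123 CPM. Of the 4 Kupffer cell and leukocyte markers tested, Clec4f, Cd163 and Cd5l were called lower and Cd68 higher with ranitidine (L2FC -3.27, -2.56, -1.13 and 1.36), acetaminophen (-2.82, -1.93, -2.04 and 1.87) and ketoconazole (-1.5, -0.95, -0.85 and 1.16), as with diclofenac at 400 µM, and with isoniazid Cd163 was called lower (-0.83) and Cd68 higher (0.60). With summed wells those of Cd163 and Cd5l with ketoconazole and both with isoniazid were not called. The part of these markers in the falls was not tested. Chloramphenicol at 450 µM raised Cpt1b and Cpt2 and lowered Acadl (16.1% of all genes higher, 17.2% lower), and doxorubicin at 2 µM raised Cpt1a and Acadm (9.07% higher). Of these 5 calls, that of Cpt1a was the one that held with summed wells. Hepatocyte markers summed to medians of 24456 CPM with chloramphenicol and 30183 CPM with doxorubicin. With doxorubicin the Kupffer cell and leukocyte markers summed to 4.00 to 8.26 CPM, the stellate markers to 3.22 to 17.6 CPM and the endothelial markers to 0 to 0.482 CPM, each below vehicle in all wells.

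Across the 14 chemicals, 49 of the 112 comparisons of the high with the low concentration were called higher and 31 lower (20.1% and 20.7% of all pairs tested). All 8 genes were higher at the high concentration of naproxen, indomethacin (20.5% of all genes higher), sulfasalazine (7.57%) and simvastatin (12%), and 0 of 8 differed between the concentrations of doxorubicin by edgeR (10.3% of all genes called in either direction), where 1 gene, Cpt1a (L2FC 0.60, SE 0.23), had an unadjusted p under 0.05, against 23% of all genes.

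The 2 rats gave the same direction in each of the 121 calls. These calls were picked by a fit of both rats together, which favours such agreement. In the treatments with no call, 2 to 6 of the 8 genes had the same sign in both rats. The size differed between the batches in 7 of 224 pairs by the test of the batch by treatment term (2.44% of all pairs tested), and these pairs are listed among the results for a closer look.

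**Figure D5:**
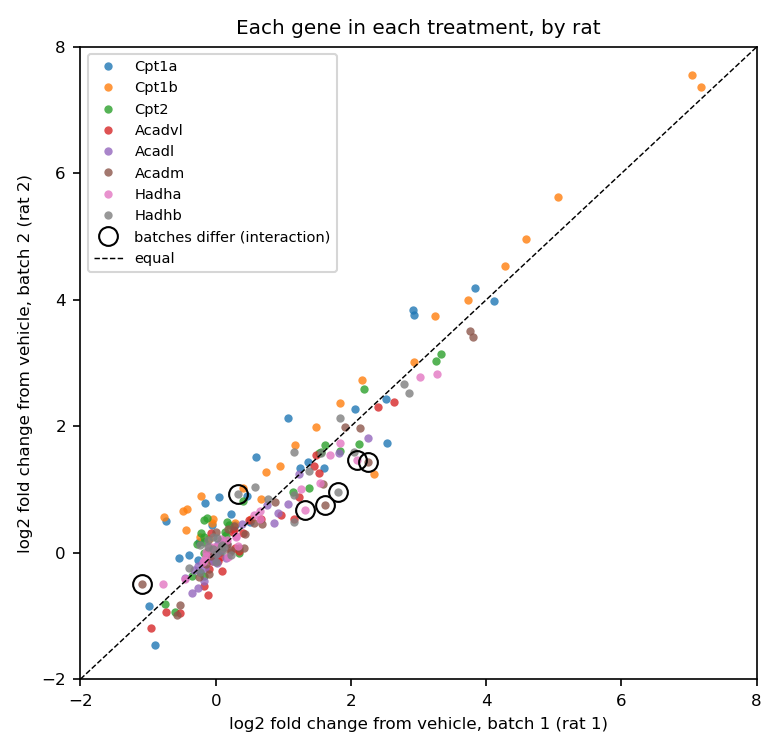
Log2 fold change from vehicle in batch 2 against batch 1 for each of the 8 genes in each of the 28 treatments, fitted in each batch alone. The dashed line marks equal changes and black rings mark the 7 pairs whose change differed between the batches; 6 of these have the larger change in batch 1.

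The ST assay, hybridised and sequenced from the same lysates with fewer probes, read 6 of the genes, 5 of them with the probe number of WT and Acadl with another. Of the 168 pairs it measured, WT called 92 and ST 91, and 86 were called by both with the same sign and 0 with opposite signs (34.8% of all ST pairs were called). The L2FC of Cpt1b with 8 µM WY14643 was 7.24 by ST, and that of Acadl, by its other probe, 1.89 by ST and 2.02 by WT. In medium against vehicle ST called Acadm, Cpt1b and Cpt2, with L2FC of -0.30, 0.76 and -0.47, where WT gave -0.16, 0.33 and -0.25 and called none. As the lysates are shared, the ST values check the assay and are not further replicates.

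The 35 other genes of the pathway and regulator lists gave 312 higher calls (31.8%) and 129 lower calls (13.2%) in 980 pairs, where all pairs tested gave 15.2% and 15%. With 8 µM WY14643, which raised 28% of all genes, 8 of 8 other mitochondrial oxidation enzymes rose, led by the thiolase Acaa2 (L2FC 5.42, SE 0.17) and the dienoyl-CoA reductase Decr1 (4.68, SE 0.13), and Eci1, an enoyl-CoA isomerase, rose by 4.21 (SE 0.16) at 200 µM. All 3 genes of the electron transfer flavoprotein chain, which takes the electrons of the dehydrogenases, rose at 8 µM, Etfdh by 3.22 (SE 0.23), Etfb by 1.74 (SE 0.07) and Etfa by 1.49 (SE 0.11). So did Acat1 (5.46, SE 0.21), a mitochondrial thiolase, and 3 of 3 malonyl-CoA genes, among them Mlycd (3.15, SE 0.10), which removes malonyl-CoA, the inhibitor of carnitine palmitoyltransferase 1, and Acacb (1.83, SE 0.20), which makes it. Of 6 other genes of carnitine use and supply 4 rose, with Crat (4.18, SE 0.13), Slc22a5 (3.76, SE 0.11), the carnitine transporter of the plasma membrane and Crot, whose largest L2FC was 3.86 (SE 0.12) at 200 µM. Of 3 acyl-CoA synthetases tested 2 rose, Acsl1 by 5.75 (SE 0.18) and Acsl4 by 0.55.

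With ranitidine at 4000 µM (33.9% of all genes lower) 8 of 8 other mitochondrial oxidation enzymes fell, by 0.34 to 1.36, and all 3 electron transfer genes fell. Acsl5, an acyl-CoA synthetase, rose there by 1.82 (SE 0.21). The largest change of Acsl4 was with naproxen at 2000 µM (1.81, SE 0.14), that of Bdh1, the ketone body dehydrogenase, with acetaminophen at 10000 µM (-3.59, SE 0.25), and that of Acaca, the cytosolic acetyl-CoA carboxylase, with caffeine at 10000 µM (-1.28, SE 0.15).

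Among the regulators, Ppara, the receptor gene itself, fell by 3.26 (SE 0.27) with acetaminophen at 10000 µM and by 1.56 with ranitidine at 4000 µM, and rose by 0.80 with 8 µM WY14643 and 1.23 with 400 µM valproic acid. Of the 9 regulators tested, 5 rose and 0 fell with 8 µM WY14643 (28% of all genes higher): Ppara, Rxra (0.85), the partner of the receptor, Ppargc1b (1.21), Foxo1 (1.18) and Lpin1 (0.51). With caffeine at 10000 µM (34.6% of all genes higher) 7 rose, among them the coactivators Lpin1 (3.57, SE 0.19) and Ppargc1b (2.91, SE 0.28). Of 16 PPARalpha target genes listed outside the 8, 13 were tested. All 13 rose with both WY14643 concentrations, 400 µM valproic acid, 2000 µM naproxen and 100 µM sulfasalazine. In these treatments 15.1% to 28% of all genes were called higher. The largest changes were with WY14643. Cyp4a1 rose by 10.94 (SE 0.40) at 200 µM and Ehhadh by 10.56 (SE 0.28) at 8 µM, from 6 to 16 and 5 to 25 reads in a vehicle well. Acot1 had 2 reads in all 9 vehicle wells together and read 545 to 915 CPM with WY14643, so that its ratio to vehicle rests on those 2 reads. It passed the filter on low counts through treated wells, so it could be called higher but not lower. Of 9 genes of general mitochondrial proteins 6 rose with 8 µM WY14643, beside 28% of all genes, with a median L2FC of 0.36 against 3.10 for the 8 genes.

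Across the 30 conditions, with batch means taken out and the batches averaged, the 8 genes varied together, with Pearson's r between 0.732 (Cpt1a and Acadl) and 0.964 (Acadm and Hadha) over the 28 pairs of genes. These conditions share 2 rats and their vehicle wells, and the WY14643 points weigh heavily, so r is given as a description. Hadhb was closest to Cpt1b (r = 0.954) and Hadha to Acadm, while r between the 2 subunits of the trifunctional protein was 0.880. The genes most like Cpt1a over the same 30 conditions were Hsdl2 (r = 0.944), Mocs2 (0.936), Mpc2 (0.929), Serpine2 (0.919) and Smpd1 (0.918), and those most like Hadha were Acat1 (0.979), Retsat (0.975), Mlycd (0.975), RGD1565355 (0.971) and Ehhadh (0.970).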

How the data were processed

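RNA of each well was measured by TempO-Seq with the WT and the ST oligos. Per the labels and the study's methods, the authors aligned reads with STAR 2.5.3a to rn6 with at most 2 mismatches and deposited raw counts per probe. A probe was matched to a gene by its symbol, the name before the probe number, without regard to case. Here the probes of a gene were added and tested in R 4.3.3 with edgeR 4.0.16 (TMM, glmQLFit and glmQLFTest, treatment and batch as terms, a mean count of 10 or more per well required of each gene, Benjamini-Hochberg over all genes tested). SE is the absolute L2FC divided by the square root of F. CPM is per total reads of a well, L2FC is after TMM scaling. Batch is 1 rat each, as the study states, and pairs treatment with vehicle. Wells of a rat are technical replicates, so p-values measure the spread between wells, and a fit of wells summed per rat was an alternative, as were DESeq2 1.42.0, other scalings, filters, terms and left-out wells. The comparison of ratios within a well added 0.5 to each count. The scripts were tested on simulated data. Named genes were all 9 genes and, from each other list, at most 3 with the largest absolute L2FC among those called with the same sign in both batches, and the genes needed to say what the regulator and other oxidation lists did. The result of 1 listed gene is not reported here. The genes and lists were chosen with earlier results of these data known. The planned display of proteins was not made, and the interval between Hadhb and Hadha was chosen after the values were seen.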

Additional observations from a re-analysis of the deposited data

Results flagged for a closer look

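The change from vehicle differed between the 2 rats in 7 pairs of gene and treatment of 224 by edgeR's test of the batch by treatment term (adjusted over all genes), a share near the 2.44% of all pairs tested, and each is given as the L2FC of batch 2 minus that of batch 1. For Acadm the difference was 0.60 with acetaminophen at 10000 µM (L2FC -1.08 in batch 1 and -0.49 in batch 2), -0.83 with naproxen at 80 µM (1.61 and 0.75) and -0.78 with sulfasalazine at 100 µM (2.25 and 1.43). For Hadha it was -0.61 with naproxen at 80 µM (1.32 and 0.68) and -0.57 with sulfasalazine at 100 µM (2.08 and 1.47). For Hadhb it was 0.59 with ketoconazole at 15 µM (0.33 and 0.93) and -0.81 with sulfasalazine at 100 µM (1.81 and 0.96). All 6 wells lay on the same side of vehicle in each of the 7 pairs. In 5 of the 7, those with acetaminophen, sulfasalazine and ketoconazole, the plate of batch 1 held no vehicle well. There is 1 rat per batch, so a difference between rats, between runs or between plates cannot be told apart. Without the wells numbered 2 none of the 7 was called, without those numbered 3 there was 1 such call among the 8 genes, and without those numbered 1 there were 11.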

How the results depend on the processing

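Of the 121 calls, 121 kept their direction and side of the threshold with DESeq2, 120 with RLE size factors, 115 with library totals alone, 117 without the filter on low counts, 119 with the highest probe of each gene, 115 with plate in place of batch, 103 with wells summed per rat, 102 in batch 1 alone and 117 in batch 2 alone, and none reversed. Without the replicate block (batch left out) 94 calls were higher and 22 lower. Calls lower than vehicle were 15 in batch 1 alone and 2 with an absolute L2FC of at least 1, where higher calls made up 97.2% in place of 80.2%, calls between concentrations were 35, and those of the other pathway genes 159 higher and 63 lower. For medium against vehicle, 1 gene was called with DESeq2, RLE size factors, library totals alone or plate in place of batch. There were 3 in batch 2 alone, with only the wells of medium and vehicle, or by ST. Of 10191 genes, RLE size factors called 814 higher and 486 lower for medium, and library totals alone 478 and 1044. No such share is given for the other settings. The 7 differences between batches became 3 by ST and 11 with library totals alone. The 312 higher calls of the other pathway genes were 200 by ST, which holds fewer of them. Leaving out the wells of 1 replicate number gave 92 to 98 higher and 22 to 26 lower calls, 0 to 1 for medium, 73 to 80 between concentrations, 0 to 11 between batches, 269 to 313 higher and 117 to 129 lower calls of the other pathway genes, 5 to 10 calls of the Hadhb to Hadha ratio and 10 to 12 of the Cpt1b to Cpt1a ratio. The causes were not tested. Depth limits Cpt1b, with 8 to 42 reads in a vehicle well, and Cpt1a, with 22 to 63.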
